A study of Mus musculus with 32 samples.

Results

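Axon guidance ligands and receptors are the cell-surface and secreted proteins that steer growing axons and migrating neural cells. They were taken here as the genes whose single symbol begins Epha, Ephb, Efna, Efnb, Sema, Plxn or Unc5, together with Nrp1, Nrp2, the Slit and Robo genes, Ntn1, Ntn3 and Ntn4. In all, 68 of the 19938 genes on the arrays matched these letters. Unc50 matched by its letters alone, is no netrin receptor and was set aside, which left 67 members. They were 8 ephrin ligands, 13 Eph receptors, 20 semaphorins, 11 plexins and neuropilins, 7 slits and Robo receptors, and 8 netrins and Unc5 receptors. The last family counts Unc5cl, an Unc5-like gene, by its name alone. The choice used names only and no measured value, though it was made with earlier results of these data known.

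The data are 32 Affymetrix Mouse Gene 1.0 ST arrays, each of RNA from 1 culture of mouse brain tumour spheres. Cells from the wall of the postnatal lateral ventricle were grown as neurospheres, given oncogenes and transplanted into the brain. Cells that carried the transgene were then sorted from the tumours and cultured again as spheres. All groups share the strain B6;129-Trp53tm1Brd and are p53-deficient, and no group lacks an added oncogene. Tumours called PNET (primitive neuroectodermal tumour) arose with MYC (6 arrays), MYC+Ezh2 (5 arrays) and MYC+Bmi1 (3 arrays). Tumours called glioma arose with HRAS (5 arrays) and HRAS+Bmi1 (2 arrays), and tumours resembling AT/RT (atypical teratoid rhabdoid tumour) with HRAS+MYC given together (7 arrays). A pair of groups received the oncogenes in sequence. "MYC then HRAS" (2 arrays) are spheres of secondary tumours after HRAS was added to PNET-derived cells, and "HRAS then MYC" (2 arrays) after MYC was added to glioma-derived cells. The labels do not say whether arrays of a group came from separate tumours or animals, so the p-values measure the spread between these cultures, which may be technical.

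Ephrins and their Eph receptor tyrosine kinases signal between touching cells, in both directions, and commonly repel. Semaphorins act through plexins, and most members of the secreted class need a neuropilin as co-receptor. Slits repel through Robo receptors, while netrins attract through Dcc and repel, or sustain survival, through Unc5 receptors. In the postnatal ventricle wall these systems are known for organising the stem cell niche and the migration of neuroblasts, and many members also act in blood vessels and in tumour cell movement.

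The values are log2 signals, in which a difference of 1 is a doubling. They ran from 1.44 to 14.5, and the median over all genes lay between 6.10 and 6.43 on every array. A probe set's signal depends on its probes, so levels are compared between groups and not between genes. For 57 members the highest of the 8 group means reached 6. The other 10 (Epha1, Epha6, Robo3, Robo4, Sema3d, Sema4a, Sema4f, Unc5c, Unc5cl and Unc5d) stayed under 6 in all group means, near the lower part of the scale where differences tend to be compressed. The mean over the 9 listed neural stem and progenitor markers was 7.11 to 9.47 per array, but single markers differed between groups. Fabp7 had a median of 4.20 in HRAS+MYC and 4.50 in HRAS, against 10.98 in MYC. Of the 9, 1 was higher and 5 lower in HRAS+MYC than in MYC, and 3 were higher and 4 lower in HRAS. All genes had 15.8% and 18.4% in the first comparison and 15.4% and 18% in the second. Among the markers of other cells, 6 of 8 for microglia and 5 of 8 for endothelium stayed under 6 on all 32 arrays, with Cd68 (up to 11.2) and Flt1 (up to 9.57) as the highest exceptions. Of the 8 pericyte and fibroblast markers 2 stayed under 6 on all arrays and the highest value was 8.53, of Cspg4. This list was higher for 3 of 8 and lower for none in HRAS against MYC, with a mean per array of 4.77 to 5.20 in MYC and 5.34 to 5.69 in HRAS. The 5 MYC+Ezh2 arrays read 12.02 to 12.31 for Ezh2, above the 9.72 to 10.90 of the other 27, and the 5 arrays with Bmi1 had a median of 10.16 for Bmi1, where the others had 9.65. The mouse Myc probe set read 6.12 to 8.25 on the 25 arrays with added MYC and 10.38 to 12.85 on the 7 without it. Whether the added MYC carries the letters these probes read is not given in the sources used here. In such bulk samples a larger share of one cell type and more RNA per cell cannot be told apart.

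The guidance genes differed widely among the tumour groups. Limma's moderated F test over the 8 groups passed for 50 of the 67 members (74.6%, adjusted p under 0.05), while it passed for 49.7% of all genes. The range between a member's highest and lowest group mean was over 4 on the log2 scale for 4 members (Epha2, Sema3e, Unc5b and Sema3a), over 2 for 26 and at most 1 for 17. It was widest for Epha2 at 5.57 and narrowest for Robo4 at 0.252, with a median over the members of 1.65. These ranges were not computed over all genes, so they have no background beside them.

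Most calls lay between the HRAS and the MYC tumours. Comparing HRAS with MYC, 16 members were higher and 15 lower (23.9% and 22.4% of the members), against 15.4% and 18% of all genes. In HRAS+MYC against MYC, 11 were higher and 24 lower (16.4% and 35.8%), against 15.8% and 18.4% of all genes. The median size of the difference over members was 0.654 in the first comparison and 0.656 in the second, where all genes had 0.226 and 0.216. The signed medians over members were 0.03 and -0.17, and over all genes -0.03 and 0.03. These comparisons share the 6 MYC arrays. HRAS+MYC against HRAS gave 4 members higher and 13 lower (5.97% and 19.4%), where 11.7% and 13% of all genes were called. When the 18 arrays with HRAS, alone or combined, were set against the 14 MYC arrays without it, group means weighted equally, 14 members were higher and 28 lower (20.9% and 41.8%), against 18.5% and 21.7% of all genes. Calls that held under every alternative tried, each array left out in turn included, numbered 18 of 31, 25 of 35, 14 of 17 and 36 of 42 in these 4 comparisons.

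**Figure D1:**
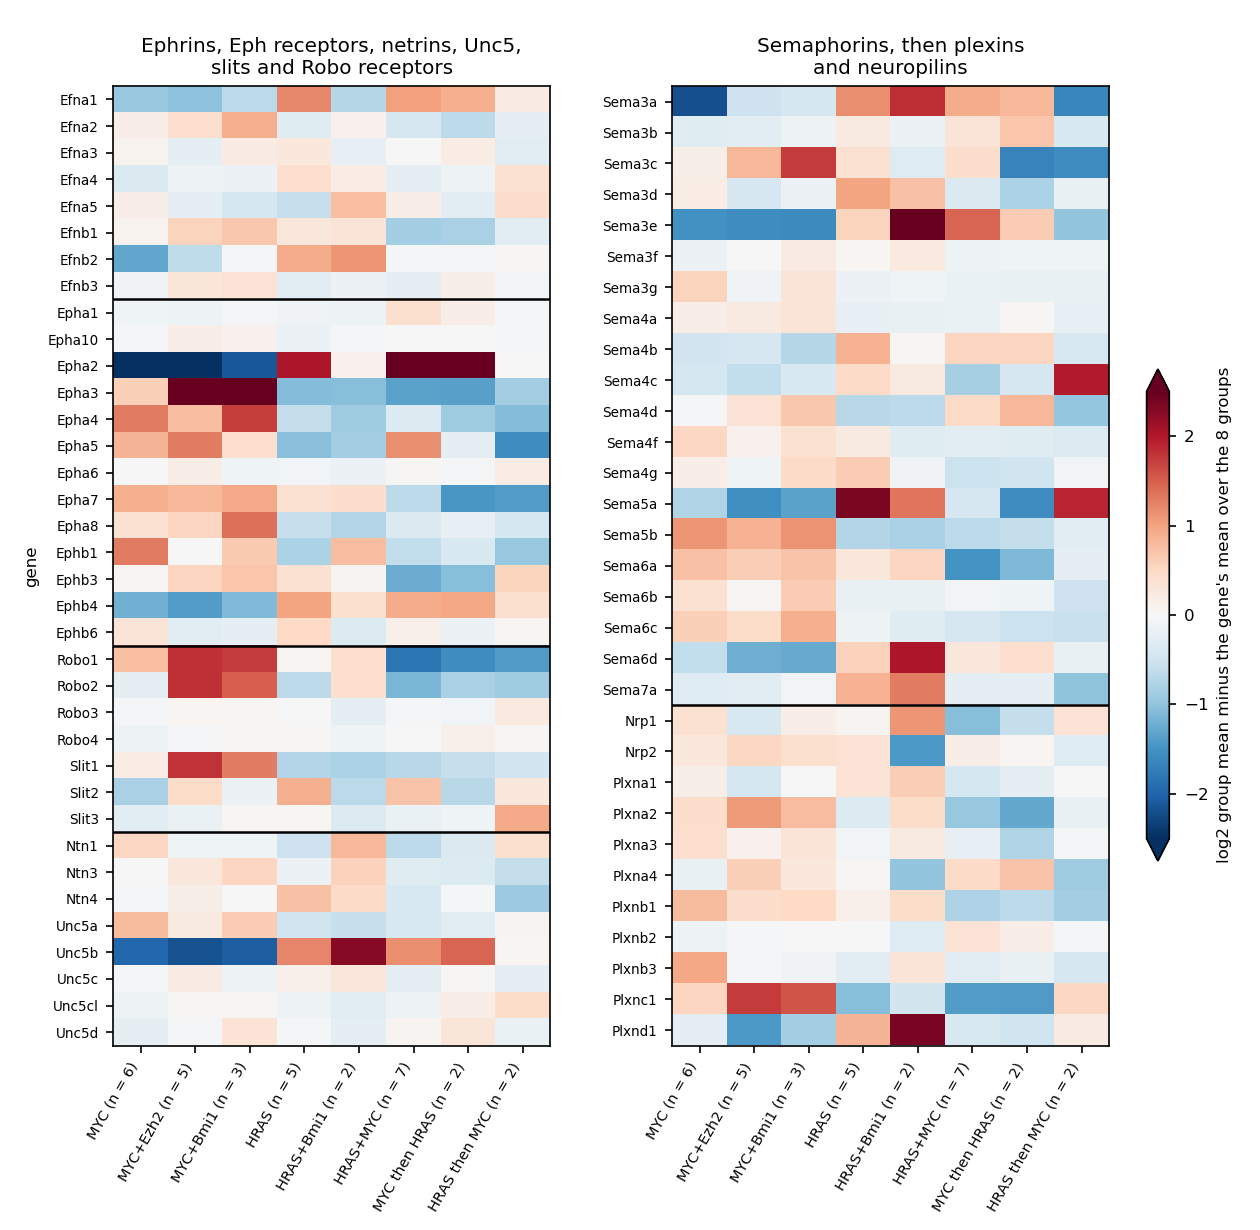
Each row is 1 of the 67 guidance genes and each column 1 of the 8 groups. Colour gives the log2 group mean minus that gene's mean over the 8 groups. Rows are grouped by family, and Epha2, Unc5b and Ephb4 are higher in every group with HRAS than in every group without it.

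For 4 members, no array with HRAS overlapped any array without it. The Eph receptors Epha2 and Ephb4 and the netrin receptor Unc5b were high with HRAS, and the transmembrane semaphorin Sema5b was low. Among all genes, 1.74% lay wholly above and 0.873% wholly below in this way. To show what lies before the start of these 4 genes, the 250 bases upstream of each RefSeq transcript start (build GRCm38.p6) are printed 5′ to 3′ on the gene's strand. Capitals mark matches to either of 2 motifs found there: TGACGTCA, the cyclic AMP response element read by CREB and ATF factors, and GGGCGG or its complement, the GC box read by Sp factors. The Epha2 window is chr4:141300971-141301220 (plus strand), that of Ephb4 chr5:137349859-137350108 (plus), of Unc5b chr10:60831582-60831831 (minus) and of Sema5b chr16:35541112-35541361 (plus).
Epha2: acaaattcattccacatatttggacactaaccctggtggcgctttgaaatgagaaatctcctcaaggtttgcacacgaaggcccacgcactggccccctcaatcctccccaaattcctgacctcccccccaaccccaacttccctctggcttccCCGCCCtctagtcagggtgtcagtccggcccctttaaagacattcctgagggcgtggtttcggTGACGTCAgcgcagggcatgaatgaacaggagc
Ephb4: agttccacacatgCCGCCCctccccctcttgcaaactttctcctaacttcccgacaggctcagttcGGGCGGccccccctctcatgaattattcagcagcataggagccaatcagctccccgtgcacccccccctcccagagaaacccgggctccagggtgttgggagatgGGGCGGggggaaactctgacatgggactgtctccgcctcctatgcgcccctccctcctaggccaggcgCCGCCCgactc
Unc5b: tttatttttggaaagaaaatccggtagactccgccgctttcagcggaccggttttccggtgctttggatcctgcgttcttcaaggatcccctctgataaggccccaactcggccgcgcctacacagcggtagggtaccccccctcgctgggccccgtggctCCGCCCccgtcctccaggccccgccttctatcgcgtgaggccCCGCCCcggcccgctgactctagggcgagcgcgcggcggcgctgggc
Sema5b: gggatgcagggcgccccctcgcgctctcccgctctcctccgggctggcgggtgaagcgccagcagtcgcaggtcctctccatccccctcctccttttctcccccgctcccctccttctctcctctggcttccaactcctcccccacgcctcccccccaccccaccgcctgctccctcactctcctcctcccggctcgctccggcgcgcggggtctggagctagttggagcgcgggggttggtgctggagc

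Promoter entries were at hand for 58 of the 67 members and for 15614 of the genes measured, and both strands were searched over the same 250 bases. TGACGTCA occurred in 1 of 58 members (Epha2, 1.72%), with its first base 33 bases before the start, and in 2.33% of all those genes. GGGCGG occurred in 45 of 58 members (77.6%) and in 49.3% of the genes; Ephb4 held 4 copies, Unc5b 2, Epha2 1 and Sema5b none. The AP-1 letters TGANTCA, which none of the 4 held, occurred in Sema4c, Sema4d and Sema6b (5.17%, against 7.12% of genes). The E-box CACGTG, the letters read by MYC with its partner MAX, occurred in Epha8, Robo2, Sema4b and Sema6d (6.9%, against 8.11%). A match is a string of letters in this window and no measure of binding.

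Epha2, an Eph receptor found in many carcinomas and gliomas, read 5.24 to 5.82 (median 5.42) on the 6 MYC arrays. The HRAS arrays read 9.96, 10.76, 9.27, 11.06 and 10.66, and the HRAS+MYC arrays 10.78 to 11.30 (median 11.09). All HRAS and HRAS+MYC arrays lay far above all MYC arrays. The HRAS mean exceeded the MYC mean by 4.87 ± 0.224 (SE; adjusted p 1.79e-15 by limma, Benjamini-Hochberg over all genes), a 29.3-fold difference. HRAS+MYC exceeded MYC by 5.57 ± 0.206 (adjusted p 1.08e-17). Across the 18 arrays with HRAS Epha2 ran from 7.99 to 11.30, and across the 14 without it from 5.24 to 6.49. The equally weighted difference was 4.05 ± 0.144 (adjusted p 1.81e-18), and in the order of F values over the 8 groups Epha2 came first among the members.

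In ascending order the Epha2 group means were 5.47 ± 0.220 in MYC, 5.67 ± 0.246 in MYC+Ezh2, 6.19 ± 0.470 in MYC+Bmi1, 8.32 ± 0.473 in HRAS then MYC, 8.43 ± 0.281 in HRAS+Bmi1, 10.34 ± 0.723 in HRAS, 11.03 ± 0.111 in MYC then HRAS and 11.04 ± 0.191 in HRAS+MYC (SD). Arrays of neighbouring groups in this order overlapped, except that MYC+Bmi1 lay below HRAS then MYC, and HRAS+Bmi1 below HRAS. HRAS+MYC was above HRAS by 0.70 ± 0.217 (adjusted p 0.0178), which did not pass with the 2 groups fitted alone (0.70, adjusted p 0.0624), without HRAS replicate 1 (0.60, adjusted p 0.0583) and without HRAS replicate 3 (0.43, adjusted p 0.0990).

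Unc5b, a netrin receptor also known from blood vessels, showed the same separation. The MYC arrays read 5.70 to 6.37 (median 6.0). The HRAS arrays read 9.15, 9.39, 8.79, 8.93 and 9.78, and the HRAS+MYC arrays 8.81 to 9.45 (median 9.09). All HRAS and HRAS+MYC arrays were again above all MYC arrays. The differences from MYC were 3.19 ± 0.157 in HRAS (adjusted p 6.68e-15, 9.14-fold) and 3.12 ± 0.144 in HRAS+MYC (adjusted p 1.37e-15). Unc5b ran from 7.95 to 10.46 on the arrays with HRAS and from 5.55 to 6.37 on those without, a difference of 3.30 ± 0.101 (adjusted p 5.78e-20). Its lowest mean among the HRAS-carrying groups was in HRAS then MYC, 8.04 ± 0.115, and its highest in HRAS+Bmi1, 10.26 ± 0.278 (SD). Because Unc5b and Ephb4 are also endothelial genes, the endothelial markers were read beside them. Pecam1 reached 7.50 on HRAS replicate 5 and at most 5.59 on the other 31 arrays, and Cdh5 at most 5.88 on any array. Flt1, from the same list, went with HRAS in most groups. It read 5.46 to 5.74 in MYC, 6.34 to 9.06 in HRAS and 6.69 to 8.66 in HRAS+MYC. Its top value was 9.57, in HRAS+Bmi1, but HRAS then MYC stayed at 5.61 to 5.74. Against MYC, 2 of the 8 markers were higher in HRAS and 1 in HRAS+MYC, and none was lower. Of all genes, 15.4% and 15.8% were higher in these comparisons. The mean of the 8 endothelial markers ran from 4.83 to 5.05 in MYC, 5.10 to 5.40 in HRAS and 5.05 to 5.48 in HRAS+MYC, and its part in these values was not tested.

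Ephb4, the receptor for ephrin-B2, read 5.60 to 8.30 (median 7.26) in MYC, 9.35, 10.04, 8.96, 9.23 and 8.83 in HRAS and 8.88 to 9.48 (median 9.24) in HRAS+MYC. The highest array without HRAS, at 8.30, stayed under the lowest array with it, at 8.51. HRAS exceeded MYC by 2.20 ± 0.306 (adjusted p 1.94e-06, 4.58-fold), and HRAS+MYC exceeded MYC by 2.12 ± 0.281 (adjusted p 7.65e-07). Sema5b, a transmembrane semaphorin that acts through class A plexins, ran the other way. It read 6.69 to 7.82 (median 7.62) in MYC, 5.69, 5.52, 5.95, 5.76 and 5.49 in HRAS and 5.58 to 5.97 (median 5.74) in HRAS+MYC. All HRAS and HRAS+MYC arrays were below all MYC arrays, and the means fell by 1.82 ± 0.159 (adjusted p 6.16e-10) and 1.77 ± 0.146 (adjusted p 1.91e-10).

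**Figure D2:**
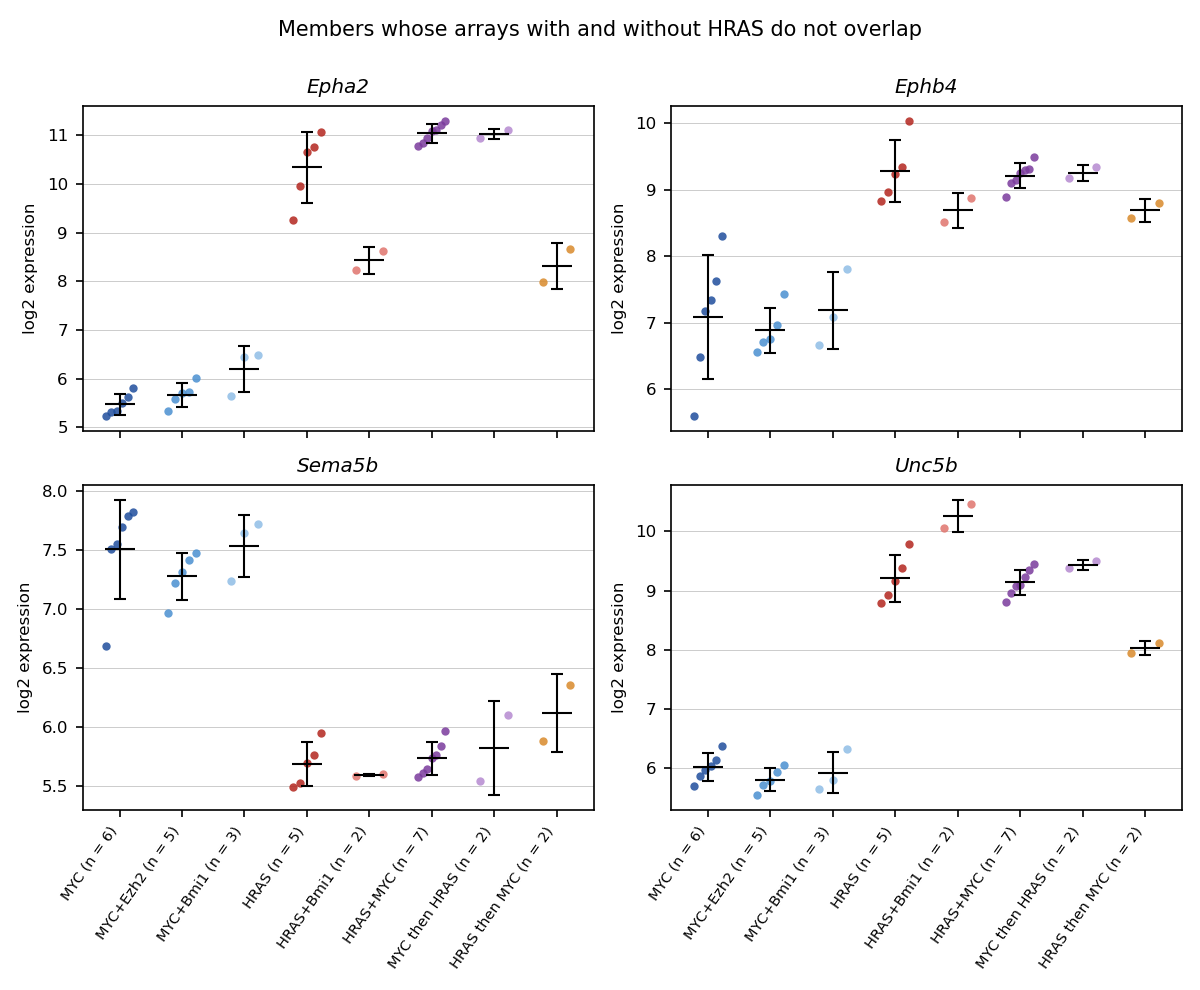
Log2 signal of Epha2, Unc5b, Ephb4 and Sema5b, with 1 point per array and a bar at each group's mean over the 8 groups. The HRAS-carrying groups hold Epha2 between 7.99 and 11.30 and the others between 5.24 and 6.49, and Sema5b is the 1 gene of the 4 that is lower with HRAS.

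Among the 8 ephrin ligands, 3 rose and none fell in HRAS against MYC, where 15.4% of all genes were higher and 18% lower. In HRAS+MYC against MYC, 1 was higher and 2 were lower, where 15.8% and 18.4% of all genes were called. Efna1, a main ligand of Epha2, read 5.76 to 7.01 (median 6.14) in MYC and 8.07, 8.93, 7.02, 9.45 and 8.79 in HRAS. All HRAS arrays were above the MYC arrays, by 2.15 ± 0.342 on average (adjusted p 1.33e-05), and HRAS+MYC was above MYC by 1.98 ± 0.314 (adjusted p 1.19e-05). Efnb2, the ligand of Ephb4, read 5.84 to 7.72 (median 6.94) in MYC and 9.09, 8.80, 9.41, 10.07 and 8.38 in HRAS, and rose by 2.23 ± 0.553 (adjusted p 0.00212). In HRAS+MYC against MYC its difference of 1.26 ± 0.508 did not pass (adjusted p 0.0569).

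Efna1, Efna3 and Efna4 stand next to each other among the measured genes of chromosome 3, and they did not move alike. Efna4 rose in HRAS by 0.79 ± 0.144 (adjusted p 8.22e-05), while Efna3 differed by 0.17 ± 0.316 (adjusted p 0.748). Without MYC arrays 4 and 5, whose stem cell factor Sox2 was low (4.85 and 6.62, with 10.74 to 11.58 on the other 4), Efna3 was called higher too (0.76, adjusted p 0.0102). In HRAS+MYC against HRAS, Efna4 fell by 0.65 ± 0.139 (adjusted p 0.000839), and Efnb1, a transmembrane ligand, fell by 1.13 ± 0.216 (adjusted p 0.000275). Efnb1 also fell in HRAS+MYC against MYC, by 0.92 ± 0.205 (adjusted p 0.000755), as did Efna2, by 0.59 ± 0.172 (adjusted p 0.00837). The Efna2 call was lost without the same MYC pair (-0.50, adjusted p 0.05).

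The Eph receptors split. In HRAS against MYC only Epha2 and Ephb4 of the 13 were higher, and 5 were lower (Epha3, Epha4, Epha5, Epha8 and Ephb1), where 15.4% and 18% of all genes were called. Epha4, a receptor for both ephrin classes that is widely expressed in neural progenitors, read 6.62 to 8.14 (median 7.37) in MYC and 5.22, 5.33, 6.13, 5.70 and 5.08 in HRAS. The HRAS mean fell by 1.87 ± 0.313 (adjusted p 2.63e-05), and the HRAS+MYC mean by 1.62 ± 0.287 (adjusted p 5.41e-05). Ephb1 read 6.50 to 8.46 (median 7.25) in MYC, 5.32, 5.38, 5.53, 5.27 and 4.94 in HRAS and 5.27 to 5.80 (median 5.44) in HRAS+MYC, and fell by 2.09 ± 0.284 in HRAS (adjusted p 1.33e-06), while in HRAS+MYC it fell by 1.92 ± 0.261 (adjusted p 1.20e-06). Ephb1 has several probe sets, of which the one with the highest mean was used.

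Epha3, Epha5 and Epha8 were less settled between HRAS and MYC. Their means fell by 1.67 ± 0.602 (adjusted p 0.0318), 1.90 ± 0.679 (adjusted p 0.0304) and 0.95 ± 0.367 (adjusted p 0.0458). The Epha3 call was lost without any 1 of HRAS replicate 3, HRAS replicate 4, MYC replicate 3 and MYC replicate 6 (the last at -1.33, adjusted p 0.0906). Epha5 lost its call without any 1 of HRAS replicates 2, 4 and 5 and MYC replicates 4, 5 and 6 (for MYC replicate 5, -1.53, adjusted p 0.0870). Epha8 lost it without any 1 of HRAS replicates 2 to 5 and MYC replicates 4 and 5 (for MYC replicate 4, -0.62, adjusted p 0.149). Without MYC arrays 4 and 5 together the Epha8 difference between HRAS and MYC was not called (-0.37, adjusted p 0.429). Over all arrays with and without HRAS the 3 receptors passed. Epha3 was lower by 3.05 ± 0.387 (adjusted p 2.66e-07), Epha5 by 1.36 ± 0.436 (adjusted p 0.0135) and Epha8 by 1.23 ± 0.236 (adjusted p 0.000110).

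HRAS+MYC differed from HRAS in 5 of the 13 Eph receptors, with 3 higher and 2 lower, where 11.7% and 13% of all genes were called. Epha5, a receptor of A ephrins, read 5.30, 4.60, 5.06, 4.72 and 4.47 in HRAS and 4.47 to 8.88 (median 7.82) in HRAS+MYC, and rose by 2.20 ± 0.656 (adjusted p 0.0140). HRAS+MYC replicates 1 and 2 were the low ones, at 4.70 and 4.47 against 7.30 to 8.88 in the other 5. Ephb3 read 7.99, 7.44, 7.39, 8.01 and 8.34 in HRAS and 5.62 to 6.70 (median 6.20) in HRAS+MYC, and fell by 1.62 ± 0.361 (adjusted p 0.00127). It also fell from MYC to HRAS+MYC, by 1.28 ± 0.343 (adjusted p 0.00413). Epha7 fell in HRAS+MYC against MYC by 1.55 ± 0.346 (adjusted p 0.000806), whereas HRAS differed from MYC in it by -0.50 ± 0.377 (adjusted p 0.356). Epha1, whose group means stayed under 6, rose by 0.52 ± 0.127 against MYC (adjusted p 0.00209) and by 0.49 ± 0.134 against HRAS (adjusted p 0.00772).

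Of the 20 semaphorins, 7 were higher and 3 lower in HRAS than in MYC, and 4 were higher and 6 lower in HRAS+MYC than in MYC. The shares of all genes were 15.4% and 18% in the first and 15.8% and 18.4% in the second. The secreted Sema3a, a classic axon repellent that signals through Nrp1 and class A plexins, read 6.08 to 7.94 (median 7.07) in MYC and 10.65, 9.42, 10.40, 10.86 and 10.97 in HRAS. HRAS rose by 3.37 ± 0.624 (adjusted p 9.42e-05), and HRAS+MYC by 3.14 ± 0.573 (adjusted p 7.86e-05). Within HRAS+MYC, replicates 1 and 2 read 8.50 and 7.79 and the other 5 arrays 10.79 to 11.52, so the group is split as it is for Epha5. Sema3e, which signals through Plxnd1, read 4.74 to 6.88 (median 5.18) in MYC, 8.32, 6.37, 8.25, 5.70 and 9.33 in HRAS and 7.92 to 9.46 (median 8.41) in HRAS+MYC. It rose by 2.08 ± 0.498 (adjusted p 0.00151) and 2.97 ± 0.458 (adjusted p 7.55e-06).

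Sema3d, Sema3a and Sema3e follow each other on chromosome 5 with 1 measured gene between the last pair. Sema3d did not pass between HRAS and MYC (0.80 ± 0.571, adjusted p 0.323). Its arrays in HRAS read 4.23, 5.33, 9.52, 4.41 and 4.12, of which the single high value belongs to replicate 3. The same array read 9.99 for the neuronal marker Map2, where the other HRAS arrays read 5.20 to 6.18. Of other neuronal markers it read 8.08 for Tubb3 (others 5.72 to 6.31) and 5.98 for Dcx (others 4.93 to 5.36). For the oligodendrocyte lineage factor Olig2 it read 8.94 (others 4.37 to 6.51). The part of neuronal or other cells in the Sema3d value was not tested. Sema3b rose by 0.52 ± 0.119 in HRAS (adjusted p 0.00108) and by 0.62 ± 0.110 in HRAS+MYC (adjusted p 4.96e-05). Sema3c was lower over the arrays with HRAS, by 1.45 ± 0.513 (adjusted p 0.0245), which did not pass without MYC+Bmi1 replicate 1 (-1.05, adjusted p 0.103). Its means in HRAS (6.51) and HRAS+MYC (6.57) were not below that in MYC (6.26). MYC+Ezh2 and MYC+Bmi1 had means of 6.96 and 7.87. HRAS+Bmi1 had 5.81, MYC then HRAS 4.46 and HRAS then MYC 4.55.

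Sema5a and Sema5b, close relatives with thrombospondin repeats, went in opposite directions from MYC to HRAS. Sema5a read 5.22 to 7.80 (median 6.28) in MYC, 9.61, 9.33, 9.27, 9.93 and 9.17 in HRAS and 5.34 to 7.80 (median 6.87) in HRAS+MYC. HRAS stood above both other groups with no overlap, by 3.10 ± 0.369 over MYC (adjusted p 1.61e-07). HRAS+MYC fell by 2.77 ± 0.357 against HRAS (adjusted p 1.62e-06) and differed from MYC by 0.33 ± 0.339 (adjusted p 0.487).

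Class 4 semaphorins are transmembrane ligands, several of them of B plexins. Sema4c read 7.89 to 8.55 (median 8.28) in MYC, 8.58, 9.04, 9.29, 9.16 and 9.70 in HRAS and 7.34 to 8.12 (median 7.92) in HRAS+MYC. It rose in HRAS against MYC by 0.90 ± 0.164 (adjusted p 7.06e-05) and fell in HRAS+MYC against HRAS by 1.31 ± 0.158 (adjusted p 6.29e-07). Sema4b rose against MYC in both, by 1.35 ± 0.238 in HRAS (adjusted p 5.28e-05) and 1.01 ± 0.218 in HRAS+MYC (adjusted p 0.000576). Against HRAS, HRAS+MYC was higher in Sema4d, by 1.16 ± 0.321 (adjusted p 0.00819), and lower in Sema4g, by 1.17 ± 0.232 (adjusted p 0.000410).

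Sema6a, a transmembrane ligand of Plxna2 and Plxna4, was low in HRAS+MYC. It read 7.99 to 9.04 (median 8.69) in MYC, 8.0, 6.74, 9.40, 8.37 and 8.23 in HRAS and 5.61 to 7.10 (median 6.27) in HRAS+MYC. HRAS+MYC fell by 2.24 ± 0.287 against MYC (adjusted p 4.68e-07) and by 1.78 ± 0.302 against HRAS (adjusted p 6.63e-05), while HRAS differed from MYC by -0.45 ± 0.313 (adjusted p 0.303). Sema6c fell in HRAS+MYC against MYC by 1.03 ± 0.288 (adjusted p 0.00596). MYC replicate 4 was its highest MYC array, at 8.72 against 5.89 to 6.79 on the other 5, and without it the difference was -0.61 (adjusted p 0.00391). Sema6d was higher over all arrays with HRAS by 1.65 ± 0.269 (adjusted p 1.23e-05).

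**Figure D3:**
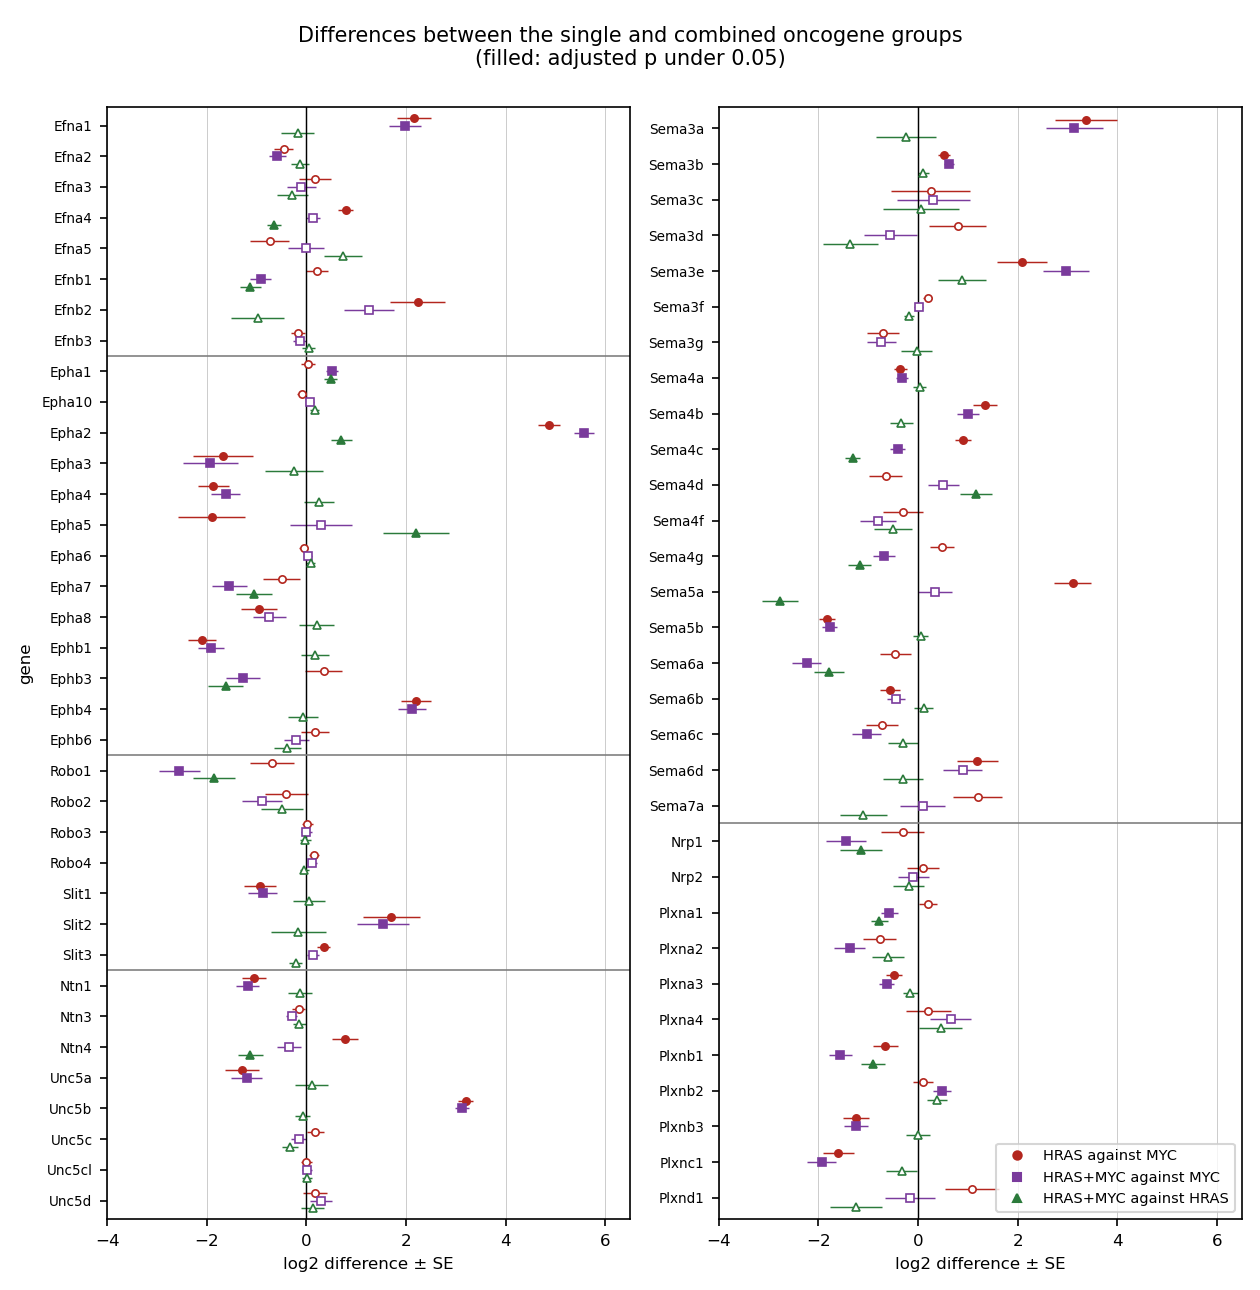
Log2 differences with standard errors for the members in HRAS against MYC, HRAS+MYC against MYC and HRAS+MYC against HRAS, by family, with filled points where limma's adjusted p was under 0.05. The ephrin and semaphorin points called in HRAS against MYC lie mostly to the right of 0 and the plexin points to the left.

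Of the 11 plexins and neuropilins, the semaphorin receptors, none was higher and 4 were lower in HRAS against MYC, where 15.4% and 18% of all genes were called. In HRAS+MYC against MYC 1 was higher and 7 were lower, where 15.8% and 18.4% of all genes were called. The higher one, Plxnb2, rose by 0.48 ± 0.185 (adjusted p 0.0460), which did not pass without any 1 of HRAS+MYC replicates 3 to 7 and MYC replicates 1, 2, 3 and 6 (for MYC replicate 1, 0.38, adjusted p 0.128). Plxnc1, the receptor of Sema7a, read 5.77 to 7.50 (median 6.24) in MYC, 5.17, 4.28, 5.45, 5.01 and 4.58 in HRAS and 4.11 to 4.86 (median 4.61) in HRAS+MYC. It fell by 1.60 ± 0.315 in HRAS (adjusted p 0.000196) and by 1.93 ± 0.289 in HRAS+MYC (adjusted p 5.14e-06), and its ligand Sema7a differed by 1.20 ± 0.490 and 0.10 ± 0.450 (adjusted p 0.0611 and 0.897). Plxnb3, known from oligodendrocytes, fell by 1.24 ± 0.257 (adjusted p 0.000339) and 1.24 ± 0.236 (adjusted p 0.000124). MYC replicates 4 and 5 read 5.72 and 5.68 for Plxnb3 and 5.02 and 5.17 for the oligodendrocyte lineage factor Olig2. The other 4 MYC arrays read 6.55 to 7.69 for Plxnb3 and 9.49 to 10.57 for Olig2. Outside MYC, high Olig2 came without such Plxnb3 values. MYC+Ezh2 replicates 1, 2 and 4 read 9.44, 9.20 and 9.37 for Olig2 and 5.79, 5.79 and 6.02 for Plxnb3. MYC+Bmi1 replicate 1 read 9.59 and 6.03, and HRAS replicate 3 read 8.94 and 5.72. Of the 7 oligodendrocyte lineage markers 1 was lower in HRAS and 4 in HRAS+MYC against MYC, and none was higher. Their mean per array ran from 5.62 to 8.55 in MYC, 6.14 to 7.46 in HRAS and 5.77 to 6.06 in HRAS+MYC, and the part of such cells in the Plxnb3 values was not tested. Without MYC arrays 4 and 5 the Plxnb3 differences passed in HRAS (-1.76, adjusted p 7.67e-09) and in HRAS+MYC (-1.76, adjusted p 1.94e-09).

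Plxnb1, the receptor of Sema4d, had its lowest values with both oncogenes. The arrays read 6.97 to 9.01 (median 8.49) in MYC, 7.54, 7.68, 7.51, 7.62 and 7.22 in HRAS and 6.25 to 6.90 (median 6.65) in HRAS+MYC. HRAS+MYC fell by 1.56 ± 0.233 against MYC (adjusted p 4.66e-06) and by 0.91 ± 0.245 against HRAS (adjusted p 0.00675). MYC replicates 4 and 5 were the low MYC arrays for this gene. Plxna2 fell in HRAS+MYC against MYC by 1.37 ± 0.306 (adjusted p 0.000768), and Nrp1, the co-receptor of Sema3a and of vascular growth factors, by 1.45 ± 0.400 (adjusted p 0.00544). Plxna1 fell in HRAS+MYC against HRAS by 0.78 ± 0.173 (adjusted p 0.00129). Plxnd1, the receptor of Sema3e, was higher over the arrays with HRAS by 1.35 ± 0.348 (adjusted p 0.00250), with MYC replicates 4 and 5 as high MYC arrays at 9.85 and 8.73. Not all groups with HRAS shared this. The means were 8.23 in HRAS, 9.76 in HRAS+Bmi1 and 7.59 in HRAS then MYC. HRAS+MYC (6.98) and MYC then HRAS (6.88) lay under MYC (7.15), while MYC+Ezh2 had 5.94 and MYC+Bmi1 6.53. Between HRAS and MYC alone Plxnd1 differed by 1.08 ± 0.542 (adjusted p 0.136).

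Robo1, a slit receptor, was lower in HRAS+MYC than in either single oncogene. It read 7.89 to 8.71 (median 8.32) in MYC, 8.63, 6.72, 9.29, 7.56 and 5.80 in HRAS and 5.40 to 6.01 (median 5.78) in HRAS+MYC. HRAS+MYC fell by 2.55 ± 0.404 against MYC (adjusted p 1.17e-05) and by 1.85 ± 0.425 against HRAS (adjusted p 0.00176). HRAS differed from MYC by -0.70 ± 0.440 (adjusted p 0.250), and its highest array was again replicate 3, at 9.29. Robo2, next to Robo1 on chromosome 16, did not pass in HRAS+MYC against MYC (-0.89 ± 0.397, adjusted p 0.0865), and over all arrays with HRAS it was lower by 1.63 ± 0.278 (adjusted p 2.26e-05).

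The slit ligands differed in direction. Slit2 rose in HRAS by 1.70 ± 0.569 (adjusted p 0.0206) and Slit1 fell by 0.93 ± 0.326 (adjusted p 0.0275). The Slit2 call was lost without HRAS replicate 4 (1.57, adjusted p 0.0547) and without HRAS replicate 5 (1.41, adjusted p 0.0769). The Slit1 call was lost without any 1 of HRAS replicates 2, 3 and 4 and MYC replicates 2, 3 and 6 (for MYC replicate 6, -0.77, adjusted p 0.0741). Slit3 rose by 0.34 ± 0.133 (adjusted p 0.0473) and kept its call only without HRAS replicate 3 or MYC replicate 6 among the removals of 1 array (for HRAS replicate 2, 0.28, adjusted p 0.144). Over the 14 arrays without HRAS and the 18 with it Slit1 was lower by 1.74 ± 0.209 with HRAS (adjusted p 1.08e-07). Among the neuronal markers, 6 of the 9 listed were lower and 1 higher in HRAS than in MYC, and likewise in HRAS+MYC. Of all genes, 18% were lower and 15.4% higher in the first comparison, and 18.4% and 15.8% in the second. The mean of the neuronal markers per array ran from 6.81 to 9.34 in MYC, 6.09 to 7.68 in HRAS and 5.89 to 6.58 in HRAS+MYC. The part of neuronal cells in the lower Robo, Slit1, plexin and Epha values was not tested.

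Of the netrins and Unc5 receptors, 2 were higher and 2 lower in HRAS, and 1 was higher and 2 lower in HRAS+MYC, both against MYC. All genes had 15.4% and 18% in the first comparison and 15.8% and 18.4% in the second. Ntn1, the founding netrin, read 7.38 to 8.31 (median 7.66) in MYC and 7.02, 6.25, 7.10, 6.78 and 6.35 in HRAS, and fell by 1.05 ± 0.246 (adjusted p 0.00128). In HRAS+MYC it fell by 1.18 ± 0.226 (adjusted p 0.000141). Ntn4, a basement membrane netrin, read 7.57, 7.23, 8.22, 7.73 and 8.66 in HRAS and 6.09 to 7.16 (median 6.98) in HRAS+MYC, and fell by 1.13 ± 0.248 (adjusted p 0.00116). Unc5a fell in HRAS by 1.30 ± 0.339 (adjusted p 0.00327) and in HRAS+MYC by 1.20 ± 0.311 (adjusted p 0.00322), with MYC replicates 4 and 5 as the high arrays of its MYC group. The first of these calls was lost with the 2 groups fitted alone (-1.30, adjusted p 0.0629). Without MYC arrays 4 and 5 the differences passed in HRAS (-0.59, adjusted p 0.0134) and in HRAS+MYC (-0.48, adjusted p 0.0285), and with HRAS+MYC arrays 1 and 2 left out as well the second was not called (-0.46, adjusted p 0.0634). Unc5c, Unc5d and Unc5cl stayed under 6 in their group means, and none passed between HRAS, MYC and HRAS+MYC.

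Spheres in which HRAS followed MYC differed from MYC in 21 members. MYC then HRAS against MYC had 8 members higher and 13 lower (11.9% and 19.4%), against 9.83% and 10.6% of all genes. Epha2 read 11.11 and 10.95 and rose by 5.56 ± 0.302 (adjusted p 2.32e-13), and Unc5b read 9.37 and 9.50 and rose by 3.42 ± 0.211 (adjusted p 2.92e-12). Sema3b rose by 0.99 ± 0.161 (adjusted p 4.31e-05). Both arrays lay above all 6 MYC arrays for Epha2 and Unc5b.

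Both sequential groups came from secondary tumours, so the second oncogene and the step to a secondary tumour cannot be told apart. The members lower in MYC then HRAS than in MYC included Epha4 by 2.16 ± 0.422 (adjusted p 0.000414), Sema6a by 1.86 ± 0.422 (adjusted p 0.00185) and Plxnc1 by 1.95 ± 0.425 (adjusted p 0.00126). Sema5b fell by 1.68 ± 0.214 (adjusted p 1.53e-06) and Plxna3 by 1.17 ± 0.219 (adjusted p 0.000249). Robo1 fell by 2.30 ± 0.593 (adjusted p 0.00571), which did not pass without MYC then HRAS replicate 2 (-1.78, adjusted p 0.176). Without that array 11 members were called. The 8 others named here, Epha2, Unc5b, Sema3b, Epha4, Sema6a, Plxnc1, Sema5b and Plxna3, were the calls that held under all alternatives. Against HRAS+MYC, where 0.0702% of all genes were higher and 0.0401% lower, limma called none of the 67 in MYC then HRAS. An unadjusted p under 0.05 was found for 3 members, and the share of all genes at that cut was not computed. With 2 arrays the lack of calls does not show that the groups are alike.

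In the reverse order, HRAS then MYC against HRAS had 4 members higher and 7 lower (5.97% and 10.4%), against 6.3% and 6.21% of all genes, and with arrays centred on their medians the split was 6 higher and 6 lower. Epha2 read 8.66 and 7.99 and fell by 2.02 ± 0.309 against HRAS (adjusted p 7.20e-05). Unc5b read 7.95 and 8.12 and fell by 1.17 ± 0.216 (adjusted p 0.000568), and Sema4c read 10.40 and 10.91 and rose by 1.50 ± 0.226 (adjusted p 5.94e-05). For these 3 genes the 2 arrays did not overlap the HRAS arrays. The other 8 calls were each lost without 1 or both of the arrays of this group, with 7 members called without replicate 1 and 5 without replicate 2. Plxnc1, for example, rose by 1.60 ± 0.435 (adjusted p 0.0145) and was not called without replicate 1 (1.44, adjusted p 0.164) or without replicate 2 (1.75, adjusted p 0.106).

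HRAS then MYC also differed from HRAS+MYC, the group given both oncogenes together. Here 9 members were higher and 7 lower (against 6.89% and 5.17% of all genes). Sema4c rose by 2.82 ± 0.216 (adjusted p 6.32e-10, 7.04-fold), and Slit3, a slit known from blood vessels, rose by 1.11 ± 0.177 (adjusted p 7.68e-05). Of the 8 pericyte and fibroblast markers 3 were higher and none lower in the same comparison, with a mean per array of 5.44 to 5.87 in HRAS then MYC and 5.13 to 5.32 in HRAS+MYC. The pericyte receptor Pdgfrb read 6.63 and 7.71 in HRAS then MYC and 4.94 to 5.31 in HRAS+MYC, and the endothelial cadherin Cdh5 read 5.75 and 5.88 against 4.62 to 5.50. The part of such cells in the Slit3 value was not tested. Epha2 fell by 2.72 ± 0.297 (adjusted p 3.66e-07) and Unc5b by 1.10 ± 0.207 (adjusted p 0.000559). With HRAS then MYC replicate 1 left out 7 were called, and with replicate 2 left out 6.

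Set directly against each other, the sequential groups differed in 7 members. MYC then HRAS had 3 higher and 4 lower, where 1.7% and 1.58% of all genes were called. For Sema5a the arrays of MYC then HRAS read 5.33 and 5.79, while those of HRAS then MYC read 8.71 and 9.34, so that the first group was lower by 3.46 ± 0.609 (adjusted p 0.000766). Sema4c was lower by 2.40 ± 0.270 (adjusted p 1.80e-06). Epha2 was higher by 2.70 ± 0.370 (adjusted p 3.64e-05) and Unc5b by 1.40 ± 0.258 (adjusted p 0.00122). These 4 kept their calls under all alternatives tried, and Plxnc1, Slit3 and Sema3b did not.

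**Figure D4:**
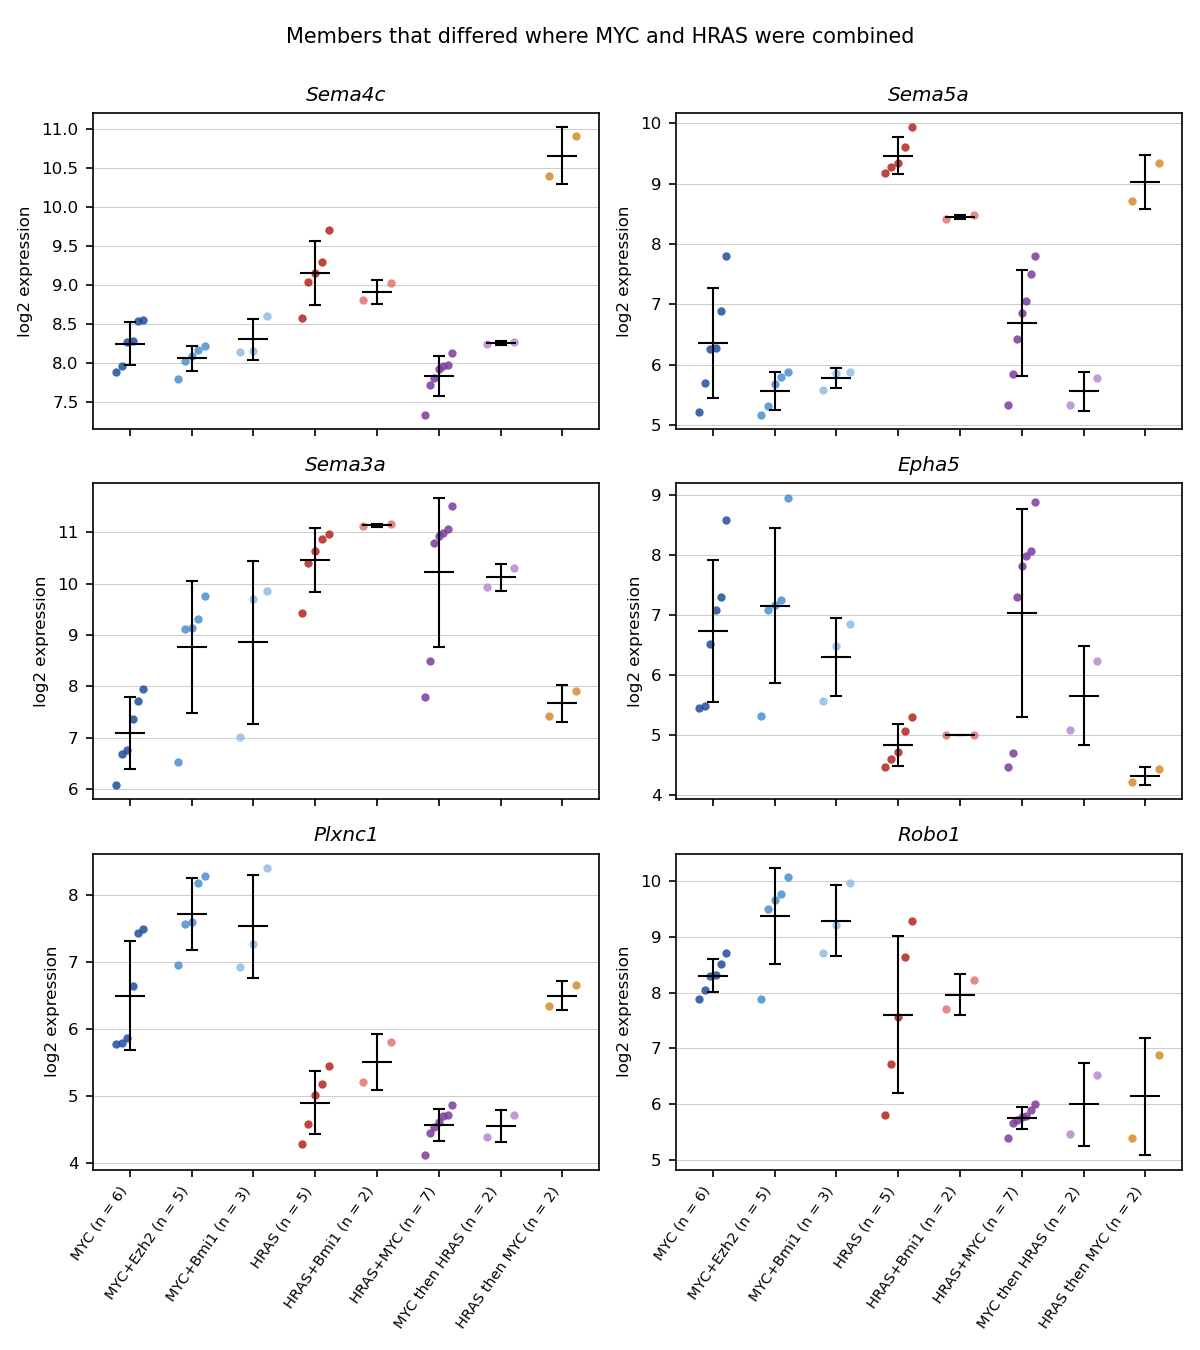
Log2 signal per array, with group means as bars, of Sema4c, Sema5a, Sema3a, Epha5, Plxnc1 and Robo1 in the 8 groups. Sema4c reads 10.40 and 10.91 in HRAS then MYC, above all other arrays, and Sema3a and Epha5 show HRAS+MYC replicates 1 and 2 below the other 5 arrays of that group.

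Ezh2 and Bmi1, both Polycomb proteins that silence developmental genes, were each added to an oncogene. MYC+Ezh2 against MYC called Robo2 and Slit1 higher and Ephb1 lower, 3 of 67, where 0.13% of all genes were higher and 0.115% lower. Robo2 read 4.91 to 6.67 (median 5.68) in MYC and 5.46, 9.29, 7.61, 8.51 and 8.36 in MYC+Ezh2, and rose by 2.07 ± 0.432 (adjusted p 0.0341). The low value of MYC+Ezh2 belongs to replicate 1 and lies within the MYC arrays. Slit1 read 5.29 to 7.18 (median 6.45) in MYC and 6.54, 8.34, 8.24, 8.12 and 8.73 in MYC+Ezh2, and rose by 1.61 ± 0.326 (adjusted p 0.0341). Ephb1 read 6.35, 5.97, 5.85, 5.69 and 6.44 in MYC+Ezh2 and fell by 1.32 ± 0.284 (adjusted p 0.0412).

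None of the Ezh2 calls held in all removals of 1 array. Without MYC+Ezh2 replicate 2, 3, 4 or 5, or MYC replicate 2, limma called none, without MYC replicate 1 it called Ephb1 alone (-1.50, adjusted p 0.0326), and without MYC replicate 4 Plxnb3 alone (-1.20, adjusted p 0.0373). The highest adjusted p for Robo2 came without MYC+Ezh2 replicate 5 (1.94, adjusted p 0.155). For Slit1 it came without the same array (1.43, adjusted p 0.155), and for Ephb1 without MYC+Ezh2 replicate 4 (-1.23, adjusted p 0.138). Without replicate 1, the array low in Robo2, 6 members were called. They were Epha3 (2.79, adjusted p 0.00168), Robo2 (2.67, adjusted p 7.90e-05), Slit1 (1.97, adjusted p 0.000521), Plxnc1 (1.41, adjusted p 0.0259), Plxna2 (1.07, adjusted p 0.0418) and Ephb1 (-1.39, adjusted p 0.0193). With MYC arrays 4 and 5 left out, Robo2 was called beside Plxnb1 (-0.87, adjusted p 0.00772) and Plxnb3 (-1.51, adjusted p 2.29e-05).

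In MYC+Bmi1 against MYC limma called none of the members, where 0.1% of all genes were higher and 0.0502% lower. An unadjusted p under 0.05 was found for 15 members, and the share of all genes at that cut was not computed. Some removals of 1 array gave 1 call. Dropping MYC+Bmi1 replicate 1 gave Ntn3 (0.69, adjusted p 0.0368), as did dropping MYC replicate 6 (0.63, adjusted p 0.0415). Dropping MYC replicate 4 gave Plxnb3 (-1.26, adjusted p 0.0415), and so did dropping MYC replicate 5 (-1.27, adjusted p 0.0392). With MYC replicates 4 and 5 both left out, Epha8, Plxnb1 and Plxnb3 were called, with Epha8 higher (1.58, adjusted p 0.0207).

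In HRAS+Bmi1 against HRAS, 5 members were higher and 3 lower (7.46% and 4.48%), against 2.87% and 3.04% of all genes. Epha2 read 8.63 and 8.23 in HRAS+Bmi1, below all HRAS arrays, and fell by 1.92 ± 0.309 (adjusted p 0.000281). Unc5b read 10.46 and 10.06 and rose by 1.05 ± 0.216 (adjusted p 0.00317), which did not pass without HRAS+Bmi1 replicate 1 (0.86, adjusted p 0.193). When the 2 groups were fitted alone, neither passed (Epha2 -1.92, adjusted p 0.0710, Unc5b 1.05, adjusted p 0.0930). Sema3e rose by 2.42 ± 0.688, Ephb1 by 1.56 ± 0.393, Ntn1 by 1.36 ± 0.340 and Ntn3 by 0.72 ± 0.179, while Efna1 fell by 1.91 ± 0.472 and Nrp2 by 1.80 ± 0.455 (adjusted p 0.0337, 0.0152, 0.0147, 0.0135, 0.0137 and 0.0160). These 6 calls were lost without either one of the 2 HRAS+Bmi1 arrays, so that 1 call was left without replicate 1 and 2 without replicate 2.

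The difference between the Bmi1 effect in HRAS cells and that in MYC cells was tested as an interaction. It passed for 4 members, with 3 higher and 1 lower, where 1.33% and 1.1% of all genes passed. Epha2 read 5.65, 6.44 and 6.49 in MYC+Bmi1, above 5 or more of the 6 MYC arrays on each of the 3, and its interaction was -2.64 ± 0.405 (adjusted p 0.000332). Ephb1 had 2.21 ± 0.515 (adjusted p 0.0196), Ntn1 1.98 ± 0.445 (adjusted p 0.0156) and Unc5b 1.15 ± 0.283 (adjusted p 0.0288). Epha2 alone passed in all alternatives tried. Without HRAS+Bmi1 replicate 1 or 2 it was the 1 member called, and without HRAS replicate 3, 8 members were called. Without HRAS+Bmi1 replicate 1 the interaction was not called for Ephb1 (2.05, adjusted p 0.183), Ntn1 (1.87, adjusted p 0.153) or Unc5b (0.95, adjusted p 0.280). Ephb1 was also lost without MYC+Bmi1 replicate 3 (1.82, adjusted p 0.0825), and Unc5b was lost without MYC+Bmi1 replicate 1 or 2, HRAS+Bmi1 replicate 2 or HRAS replicate 4.

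**Figure D5:**
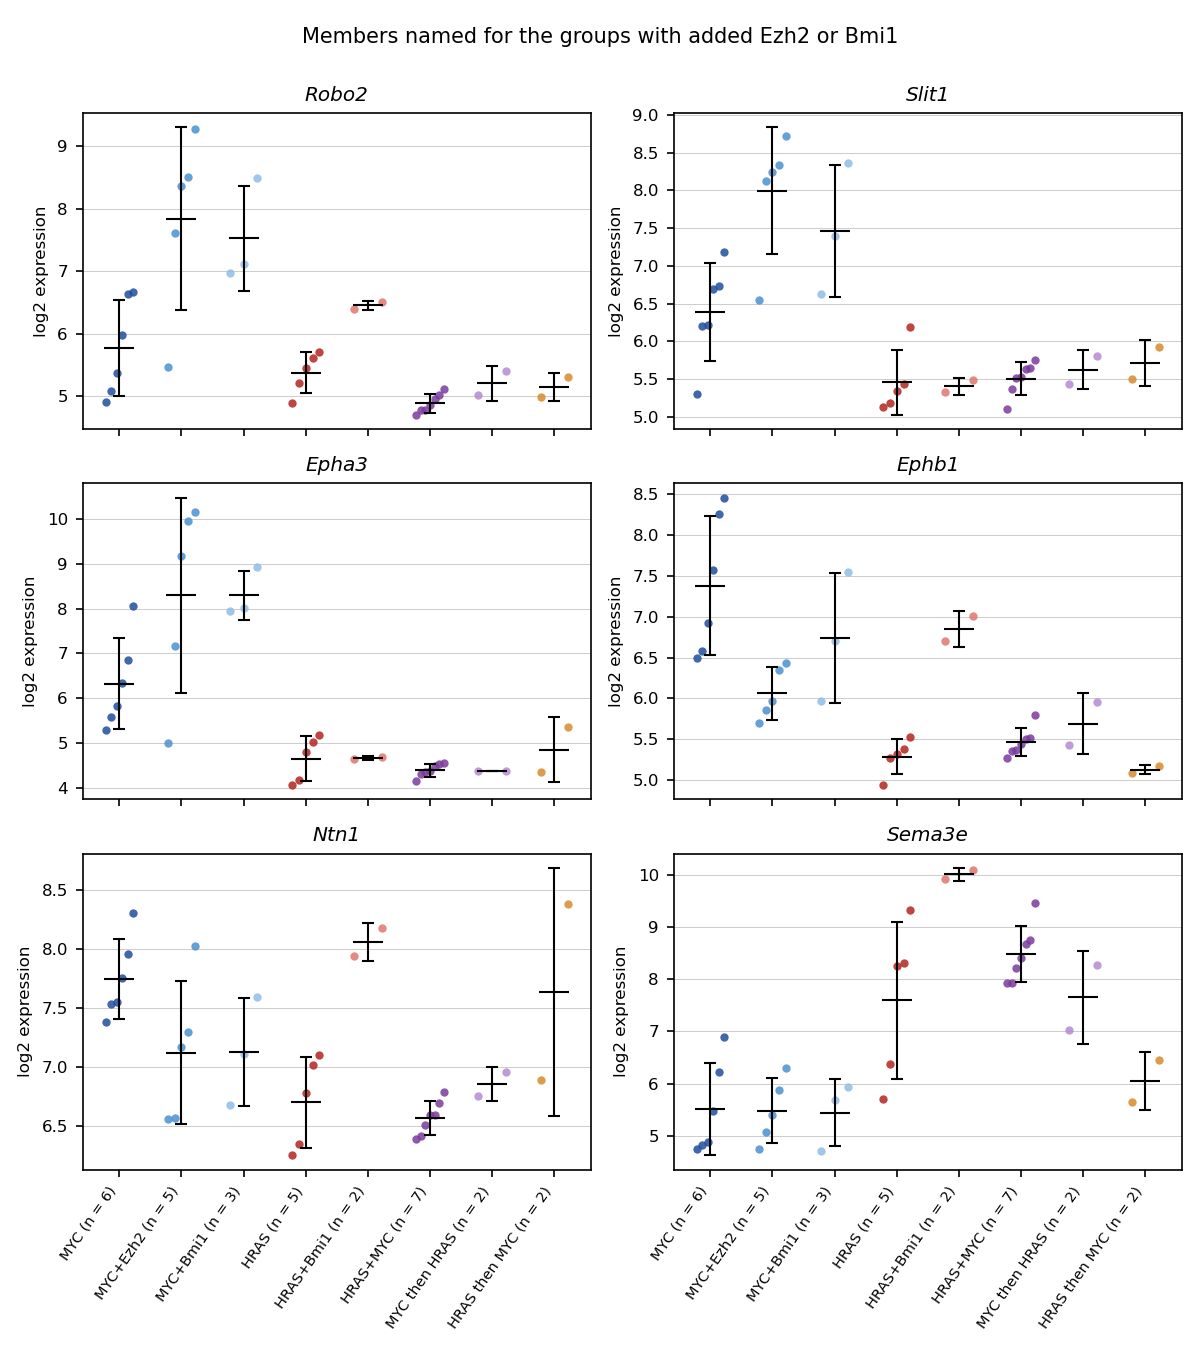
Log2 signal per array, with group means as bars, of Robo2, Slit1, Epha3, Ephb1, Ntn1 and Sema3e in the 8 groups. MYC+Ezh2 replicate 1 is the low point of its group in Robo2 (5.46 against 7.61 to 9.29) and in Slit1.

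Binding partners outside these families and the signalling proteins behind them moved in both directions. Of 27 measured partners (other ligands, co-receptors and adhesion molecules), 7 were higher and 10 lower in HRAS than in MYC, and 4 were higher and 14 lower in HRAS+MYC, where the shares of all genes were 15.4% and 18%, and 15.8% and 18.4%. Met, the tyrosine kinase that associates with B plexins, rose in HRAS (5.19 ± 0.633, adjusted p 2.44e-07), as did the chemokine receptor Cxcr4 (2.64 ± 0.545, adjusted p 0.000339). The contactin Cntn1 fell in both HRAS (-3.93 ± 0.579, adjusted p 4.54e-06) and HRAS+MYC (-4.62 ± 0.532, adjusted p 7.50e-08). Dcc, the attractive netrin receptor, was singled out after its values were seen, as the netrin receptor beside Unc5b. It fell in HRAS (-1.50 ± 0.530, adjusted p 0.0288) and in HRAS+MYC (-1.88 ± 0.487, adjusted p 0.00311). Of 54 measured effectors, 18 were higher and 13 lower in HRAS than in MYC, and 16 were higher and 18 lower in HRAS+MYC, beside the same shares of all genes. Ngef, the exchange factor that Epha4 activates, rose in HRAS (1.97 ± 0.296, adjusted p 6.12e-06), and Chn2, a Rac inactivator of the chimaerin family, fell (-2.23 ± 0.562, adjusted p 0.00248).

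The F test did not pass for 17 members, whose group means spanned from 0.252 (Robo4) to 3.41 (Sema3c): the ephrins Efna3 and Efna5; the receptors Epha6, Epha10 and Ephb6; the semaphorins Sema3c, Sema3d, Sema3g, Sema4f and Sema7a; Plxna4 and Plxnb2; Slit2, Robo3 and Robo4; and Unc5c and Unc5d. A member can miss the F test and still pass a single comparison, as Slit2, Sema3c and Plxnb2 did. Ephb6, a receptor whose kinase is inactive, read 5.61 to 7.54 (median 5.96) in MYC and 7.0, 7.14, 5.80, 6.45 and 5.73 in HRAS, which overlapped (0.18 ± 0.278, adjusted p 0.700). Efna5 read 5.85 to 8.13 (median 6.57) in MYC and 5.21, 4.87, 6.42, 7.09 and 6.94 in HRAS, which overlapped too (-0.74 ± 0.391, adjusted p 0.158). Sema3c, a secreted semaphorin of the neuropilin class, had group means from 4.46 ± 0.327 in MYC then HRAS to 7.87 ± 2.20 in MYC+Bmi1 (SD). Efnb3 and Sema3f passed the F test with group means that spanned at most 1, and Efnb3 was lower over the arrays with HRAS by 0.30 ± 0.0917 (adjusted p 0.00879).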

How the data were processed

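The deposited table holds 1 log2 signal per probe set and array, which the authors made by RMA. The submitters' processing notes name Affymetrix Expression Console 1.0 as the software. RMA gives all arrays nearly the same distribution, so a change of total RNA per cell cannot be seen, and such array files hold no read depth. Of 35557 probe sets, 21789 had a single gene symbol, 1621 several and 12147 none. Those with a single symbol gave 19938 genes, each read by its probe set with the highest mean, and 5 members had several. The 8 groups follow the sample titles. Limma 3.58.1 (R 4.3.3; lmFit and eBayes) was fitted to all 32 arrays with 1 mean per group, so the groups of 2 arrays borrow the pooled spread. P-values are 2-sided and Benjamini-Hochberg adjusted over all 19938 genes, and a member passed at an adjusted p under 0.05. The script was tested on simulated data.

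Members and gene lists were chosen with earlier results of these data known. Every member may be named; from each list of other genes at most 3 per direction and comparison, the largest differences that passed, and markers that bear on a result. Alternatives were each array left out, compared groups alone, centring arrays on their medians, mean of a gene's probe sets, a floor of 6 on the highest group mean, a trended robust variance, a replicate block and MYC arrays 4 and 5 left out. Leaving out HRAS+MYC arrays 1 and 2 was added after seeing the data. Same-numbered arrays of different groups deviated together with a median correlation of 0.01 (11 of 79 pairs over 0.1), so the numbers were not taken to pair arrays. Promoters come from RefSeq (GRCm38.p6). No entry was at hand for Plxna1, Sema6a, Sema3b, Plxna4, Unc5d, Efnb3, Sema3f, Ntn1 and Slit1.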

Additional observations from a re-analysis of the deposited data

Results flagged for a closer look

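In groups of 4 to 10 arrays, 1 array's gap to its nearest neighbour was compared with the range of its group by Dixon's criterion. Of 268 such groups over the members, 17 (6.34%) had an array beyond the 95% critical value, and chance flags about 1 in 20. MYC+Ezh2 replicate 1 was the low array of its group in 4 members: Sema3a at 6.52 (others 9.12 to 9.77), Plxna2 at 7.18 (others 9.17 to 9.59), Robo1 at 7.89 (others 9.50 to 10.07) and Slit1 at 6.54 (others 8.12 to 8.73). In the same group replicate 2 was low in Nrp1, at 5.27 (others 6.19 to 6.49).

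HRAS replicate 3 was the high array of its group in Sema3d, at 9.52 (others 4.12 to 5.33), and in Unc5c, at 6.19 (others 4.99 to 5.20). HRAS replicate 5 was high in Unc5d, at 6.59 (others 4.73 to 5.27). Among the MYC arrays, replicate 4 was high in Plxna1 at 9.55 (others 8.29 to 8.49) and in Sema6c at 8.72 (others 5.89 to 6.79), and low in Unc5c at 4.52 (others 5.07 to 5.39). MYC replicate 3 was low in Sema5b, at 6.69 (others 7.51 to 7.82), and still lay above all arrays with HRAS.

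HRAS+MYC replicate 5 was the low array in 4 members, with small gaps: Epha10 at 5.96 (others 6.24 to 6.38), Sema6b at 6.09 (others 6.46 to 6.73), Unc5c at 4.70 (others 4.94 to 5.03) and Unc5cl at 4.61 (others 4.82 to 4.95). HRAS+MYC replicate 1 was high in Epha4, at 7.04 (others 5.11 to 5.93).

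The effect of added Bmi1 differed between HRAS and MYC cells in 4 members by the limma interaction term, with log2 values of -2.64 for Epha2, 2.21 for Ephb1, 1.98 for Ntn1 and 1.15 for Unc5b. The interaction uses 2 HRAS+Bmi1 arrays.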

How the results depend on the processing

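No called difference changed its sign under an alternative. Counts of members called stayed within 1.5 times the reported count under most settings. With the compared groups alone, MYC+Ezh2 against MYC called 0 members, HRAS+Bmi1 against HRAS 3 and the Bmi1 interaction 2. The replicate block left 0 called in MYC+Ezh2 against MYC. Leaving out MYC arrays 4 and 5 gave 3 in MYC+Bmi1 against MYC. With 1 array left out, the count ran from 0 to 6 in MYC+Ezh2 against MYC, 0 to 1 in MYC+Bmi1 against MYC, 1 to 8 in HRAS+Bmi1 against HRAS, 11 to 25 in MYC then HRAS against MYC, 5 to 13 in HRAS then MYC against HRAS, 6 to 15 in HRAS then MYC against HRAS+MYC and 1 to 8 in the Bmi1 interaction. Where this left 1 array in a group, that array was assumed to vary like the other groups.

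Single calls were lost in 36 of 153 cases with the groups alone, 25 of 195 with the replicate block, 11 of 195 with median centring, 2 of 195 with the mean of probe sets, and 0 of 188 and 0 of 195 with the floor and the trended variance. Leaving out 1 array lost 258 of 2914. The pairing check found 9 of 32 arrays closest to an array of the same number. Centring moved the median over all genes from 0.03 to 0.14 in HRAS+MYC against MYC and from 0.04 to 0.19 in HRAS then MYC against HRAS.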
